A study of Mus musculus with 24 samples.

Results

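Uninjured carotid arteries from 6 ovariectomized mice treated with tamoxifen were compared with those from 6 ovariectomized mice treated with vehicle. These are 12 of the 24 RNA sequencing libraries of the series. Tamoxifen-treated mice C11, C12, C13, C32, C33 and C35 and vehicle-treated mice C2, C3, C4, C5, C24 and C25 were taken by the names in the library titles, where vehicle libraries carry only OVX, for ovariectomy. All 12 mice, and the 6 mice each treated with 17β-estradiol (E2) or estetrol (E4) that also enter below, were ovariectomized wild-type C57BL/6 animals. The labels give an age of 9 weeks and enter vehicle as Placebo. The design text gives 3 weeks of treatment, whereas the study's methods describe a shorter schedule. The dose and route of tamoxifen are not given in the sources used here, so it is not known whether doses were matched with E2 or E4. The E4 libraries are named so only in their titles, and their treatment is entered as placebo.

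Tamoxifen is a selective modulator of the estrogen receptor. Its hydroxylated metabolites bind the ligand pocket of estrogen receptor α (ERα), the product of Esr1, and move the receptor's last helix away from the position that recruits coactivators to activation function AF2. The amino-terminal activation function AF1 is left available, so tamoxifen opposes estradiol in the breast and acts as an agonist in the uterus and bone. In arteries, ERα is found in endothelial cells, smooth muscle cells (SMCs) and adventitial cells. Ovariectomy removes most circulating estrogen, so that an effect of tamoxifen is measured with little estradiol to oppose.

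Expression was measured as estimated counts per gene, with totals of 38462554 to 64221401 per library (median 46305440), and is given as CPM, counts relative to each library's total after TMM scaling in edgeR. SMC transcripts were abundant in both groups, with mean levels of 1320 and 1790 CPM for Acta2 in vehicle- and tamoxifen-treated mice, and those of endothelial cells were present, with 261 and 308 CPM for Pecam1. The tissue also held nerve, fat and blood. Markers of sympathetic neurons, as the mean of log2 CPM over 18 genes, lay at 7.06 to 8.07 in 5 vehicle libraries and at 1.27 in C5, and at 7.97 to 8.47 in 5 tamoxifen libraries and 3.85 in C35. Markers of skeletal muscle were high in vehicle C2 (2.92) and tamoxifen C35 (3.24). The number of calls is therefore also given without C5 and C35.

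Few genes passed for tamoxifen. Of 25033 tested genes, 77 (0.308%) were regulated as compared with vehicle, with a log2 fold change beyond 1 in either direction and an adjusted p below 0.05 (Benjamini-Hochberg adjustment, edgeR's quasi-likelihood test with all 24 libraries in the fit). Of these, 30 (0.12% of tested genes) were higher with tamoxifen and 47 (0.188%) were lower. Their median absolute log2 fold change was 1.44. The libraries of both groups did not overlap in 646 of all tested genes (2.58%), 34 of them among the 77 (13 higher and 21 lower). Without the fold-change threshold, 323 genes (1.29%) rose and 230 (0.919%) fell, which is 2.21% of those tested. These 553 became 39 with only the tamoxifen and vehicle libraries in the fit, 7 with erythroid and 11 with B cell markers as a covariate (described below). Other settings gave more, with 1593 by DESeq2, 1276 by limma voom with sample quality weights and 1430 with sympathetic neuron markers as a covariate. The median log2 fold change over all tested genes was -0.0033. Protein-coding genes made up 54 of the 77, and the exons of 20 overlapped another gene, so that their reads could have been shared.

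**Figure D1:**
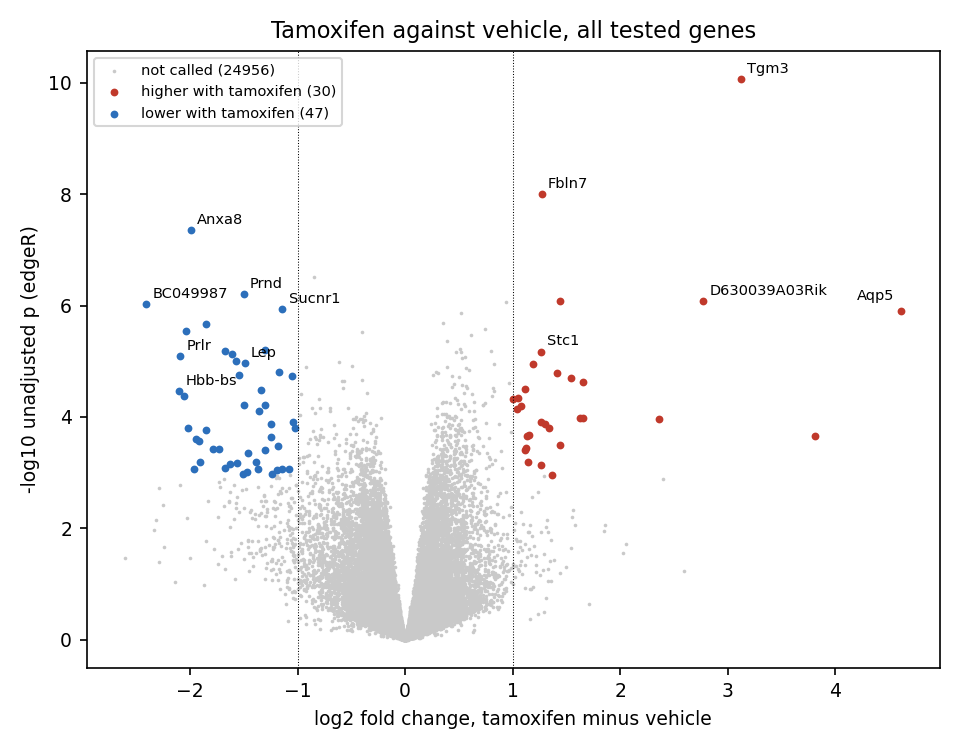
Each point is a tested gene, with the log2 fold change of tamoxifen minus vehicle on the horizontal axis and -log10 of the unadjusted p-value on the vertical axis; dotted lines mark log2 fold changes of -1 and 1. The 30 genes called higher are red and the 47 called lower are blue, with Tgm3 at the top and Aqp5 farthest to the right.

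How many genes were called depended on the libraries. With only the 12 tamoxifen and vehicle libraries in the fit, 17 genes passed, 7 higher and 10 lower, and all 17 were among the 77. The 7 were Aqp5, Tgm3, D630039A03Rik, Fam107a, Fbln7, Stc1 and Gm44166. The 10 were BC049987, Prlr, Magel2, Anxa8, Cyp2f2, Lmx1a, Gm46565, Gm48630, Fsd2 and Sucnr1. Of genes taken by the naming rule, the only ones with an adjusted p-value under 0.05 in this smaller fit, at any fold change, were Aqp5, Tgm3, D630039A03Rik, Fam107a, Fbln7, Stc1, BC049987, Prlr, Magel2, Anxa8 and Cyp2f2. Without vehicle C3, the number fell to 29, without tamoxifen C33 to 39, and without both vehicle C5 and tamoxifen C35 to 49. Adjusted p-values of genes described below that were then over the threshold include those of Esr1 (0.0688), Pgr (0.056), Crebbp (0.0622), Ep300 (0.0508), Pelp1 (0.0855), Col1a2 (0.0576), Col15a1 (0.0929), Tgfb2 (0.0755), Foxo1 (0.0855) and Thbs1 (0.0814). Those of Serpinb9b (0.0543), Hba-a2 (0.0536), Hba-a1 (0.0543), Ptges (0.0837), Gsta3 (0.0636), Apln (0.0784) and Amy1 (0.0906) were over it as well. In every fit that left out 1 of the 12 libraries, 24 genes stayed called, 9 higher and 15 lower. Of 52 genes taken by the naming rule with an adjusted p-value under 0.05, 18 kept their call in all 12 of these fits, 32 lost it without vehicle C3, 27 without tamoxifen C33, and 2 to 19 without each of the others. Animal numbers fell in a low and a high series, whose meaning the labels do not give. With the series as a covariate, 62 genes passed (26 higher and 36 lower), all among the 77. In the first (4 vehicle and 3 tamoxifen) 1 gene passed, Tgm3, and 5836 genes had an unadjusted p-value under 0.05. In the second (2 vehicle and 3 tamoxifen) 0 genes passed, and 1636 had an unadjusted p-value under 0.05 by the same test. An interaction of series and tamoxifen was called for 0 of 24105 genes, with 1456 at an unadjusted p-value under 0.05.

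The strongest increase by p-value was that of Tgm3, a transglutaminase that cross-links structural proteins and is best known from epidermis and hair. Its gene lies on chr2:130012349-130050399 (GRCm38). Vehicle libraries had 0.983 to 3.06 CPM (median 2.40) and tamoxifen libraries 12.8 to 33.3 CPM (median 16.6), with no overlap. The log2 fold change was 3.12 ± 0.28 (SE, adjusted p = 2.13e-06). It was 3.09 in the first number series and 3.27 in the second, and Tgm3 passed in each of the 12 fits that left out 1 library. With E2 the log2 fold change against the same vehicle libraries was 0.71 (adjusted p = 0.161) and with E4 0.88 (adjusted p = 0.0232). Tested directly, tamoxifen exceeded E2 by 2.41 (adjusted p = 3.16e-06) and E4 by 2.24 (adjusted p = 0.000127).

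Aqp5, a water channel of secretory epithelia at chr15:99590782-99594829, had the largest fitted log2 fold change among the 77. Its CPM ranged from 0.0151 to 0.334 (median 0.14) in vehicle libraries and from 1.81 to 4.90 (median 3.76) in tamoxifen libraries. The groups did not overlap, and the log2 fold change was 4.61 ± 0.71 (adjusted p = 0.00279). It was 5.06 and 4.0 in the first and second number series. Values with E2 (1.99, adjusted p = 0.143) and E4 (1.86, adjusted p = 0.0784) did not pass. The difference from E2 was 2.62 (adjusted p = 0.0107) and that from E4 2.75 (adjusted p = 0.0656). E4 libraries had 0.0461 to 2.59 CPM (median 0.204), and the highest of them lay within the tamoxifen range. Of 15 epithelial and salivary markers 9 were tested, Aqp5 being the only one that rose, and Krt5, Krt8 and Krt14 stayed below the filter. Their summed level was 97.3 to 149 CPM in vehicle and 92.4 to 120 CPM in tamoxifen libraries.

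Fbln7 and Anxa8 had the next lowest adjusted p-values among the 77. Fbln7, at chr2:128862981-128897034, encodes fibulin-7, a secreted matrix glycoprotein that binds cells. It had 11.8 to 17.1 CPM (median 14.2) with vehicle and 29.7 to 50.2 CPM (median 31.5) with tamoxifen, without overlap. The highest value was that of C35. The log2 fold change was 1.27 ± 0.15 (adjusted p = 0.000125), beside 1.73 with E2 and 0.80 with E4, and neither difference from tamoxifen passed (adjusted p = 0.0557 and 0.238). Anxa8, at chr14:34085981-34100571, encodes an annexin, a calcium-dependent membrane-binding protein. It had 3.85 to 8.37 CPM (median 6.01) with vehicle and 1.17 to 2.09 CPM (median 1.58) with tamoxifen, again without overlap. Its log2 fold change was -1.99 ± 0.25 (adjusted p = 0.000368), beside -1.46 with E2 and -1.82 with E4.

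The promoter windows of these 4 genes are shown because ERα binds DNA at estrogen response elements. Tgm3, Fbln7 and Anxa8 were taken for the lowest adjusted p-values among the 77 and Aqp5 for the largest log2 fold change. Each window runs from 250 bases before to 50 bases after the RefSeq start (GRCm38.p6), 5′ to 3′, and all lie on the plus strand: Tgm3 at chr2:130012090-130012389, Aqp5 at chr15:99590778-99591077, Fbln7 at chr2:128863682-128863981 and Anxa8 at chr14:34085729-34086028. For Aqp5 and Fbln7 the RefSeq start lies downstream of the first base in GENCODE. Capitals mark the half-site GGTCA, or TGACC where it is on the other strand.
Tgm3: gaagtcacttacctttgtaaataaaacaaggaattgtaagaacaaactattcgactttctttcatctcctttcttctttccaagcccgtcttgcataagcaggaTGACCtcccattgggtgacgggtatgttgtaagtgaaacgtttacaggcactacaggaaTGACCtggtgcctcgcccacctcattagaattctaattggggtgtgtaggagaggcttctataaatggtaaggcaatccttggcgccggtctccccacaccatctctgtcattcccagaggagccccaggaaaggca
Aqp5: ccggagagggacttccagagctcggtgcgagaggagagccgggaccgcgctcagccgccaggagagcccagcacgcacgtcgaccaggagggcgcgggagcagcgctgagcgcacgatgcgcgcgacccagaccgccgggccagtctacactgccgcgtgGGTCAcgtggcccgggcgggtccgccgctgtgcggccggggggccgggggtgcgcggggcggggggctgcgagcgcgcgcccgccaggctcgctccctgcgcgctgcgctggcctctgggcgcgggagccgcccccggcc
Fbln7: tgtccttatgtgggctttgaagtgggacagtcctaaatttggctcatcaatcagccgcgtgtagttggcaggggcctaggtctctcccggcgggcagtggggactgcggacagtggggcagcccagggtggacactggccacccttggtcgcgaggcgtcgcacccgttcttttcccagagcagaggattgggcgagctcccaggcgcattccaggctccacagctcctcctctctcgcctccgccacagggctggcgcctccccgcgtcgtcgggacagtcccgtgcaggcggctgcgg
Anxa8: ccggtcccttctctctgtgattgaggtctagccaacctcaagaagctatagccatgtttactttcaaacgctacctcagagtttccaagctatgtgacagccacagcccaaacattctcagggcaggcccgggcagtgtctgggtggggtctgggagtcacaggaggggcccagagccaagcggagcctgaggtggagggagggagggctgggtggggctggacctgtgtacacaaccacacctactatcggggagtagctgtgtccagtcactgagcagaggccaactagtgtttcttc
Tgm3 held 2 half-sites, Aqp5 1, and Fbln7 and Anxa8 0. The full element, searched as GGTCANNNTGACC, was in 0 of the 49 called genes that had a window and in 23 of all 32851 windows (0.07%). A half-site on either strand was in 24 of the 49 (49.0%), 12 of 21 higher and 12 of 28 lower genes, beside 40.5% of all windows. These counts are a description of the letters near the start, and most known ERα binding lies farther away.

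**Figure D2:**
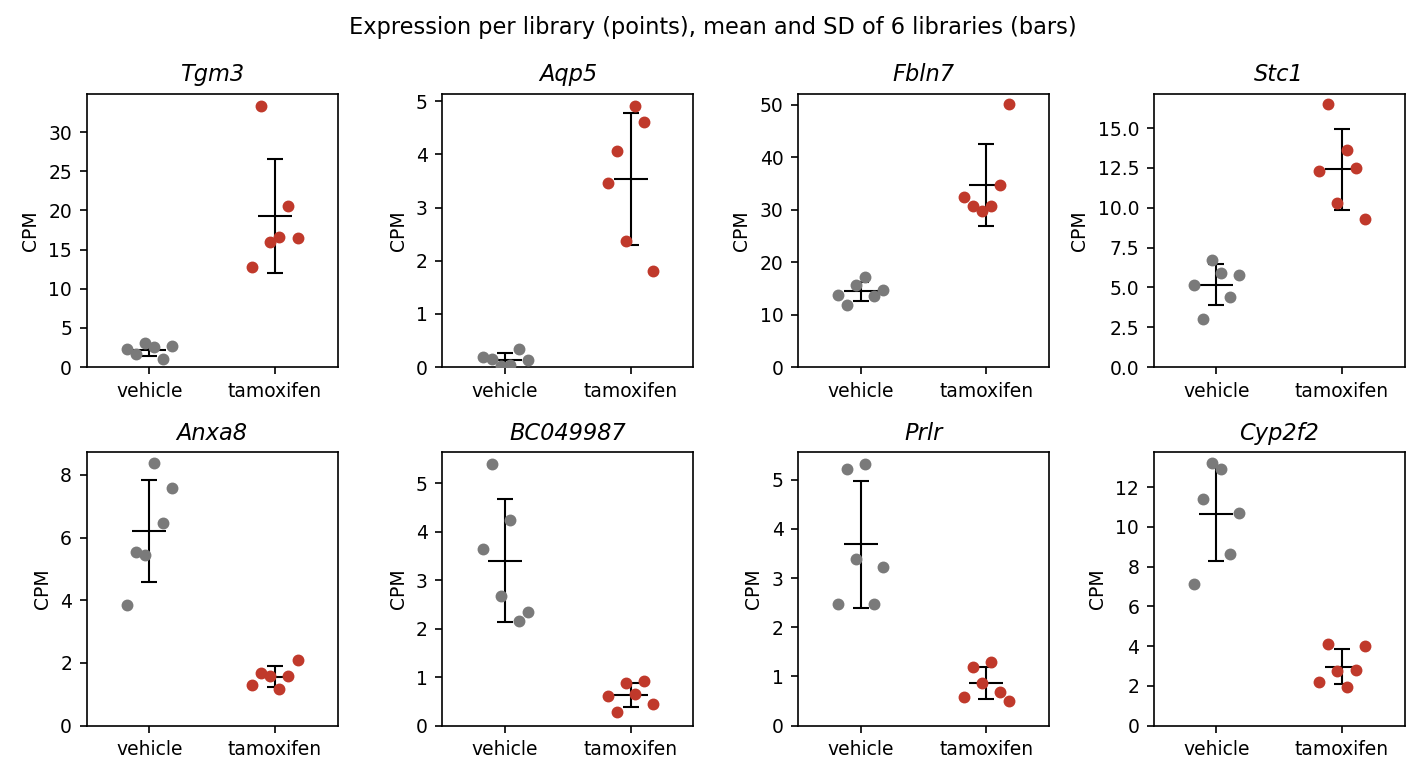
CPM on a linear axis from 0 for 8 genes, with 1 point per library (6 vehicle in grey, 6 tamoxifen in red) and bars for the mean and SD. The groups do not overlap in any of the 8 panels, and tamoxifen C35 is highest for Fbln7 at 50.2 CPM.

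Among other genes with higher expression, D630039A03Rik, a protein-coding gene without an established role, had 0.352 to 1.08 CPM (median 0.698) with vehicle and 1.82 to 8.05 CPM (median 3.93) with tamoxifen. The groups did not overlap, and the log2 fold change was 2.77 ± 0.42 (adjusted p = 0.00263). Fam107a, which encodes a stress-responsive actin-binding protein, had 10.2 to 22.3 CPM (median 15.7) with vehicle and 30.8 to 59.3 CPM (median 40.8) with tamoxifen, also without overlap. Its log2 fold change was 1.44 ± 0.22 (adjusted p = 0.00263), and 1.44 and 1.43 in the first and second number series. Tent5b, of a family of poly(A) polymerases, rose by 1.54 ± 0.29 (adjusted p = 0.0102), from a median of 1.49 to 4.54 CPM, without overlap. Lrg1, a secreted glycoprotein known to promote vessel growth through TGF-β signaling, rose by 1.41 ± 0.26 (adjusted p = 0.00927). Its vehicle libraries reached 15.1 CPM and its lowest tamoxifen library had 14 CPM.

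Several increases were less secure. Serpinb9b, an inhibitor of serine proteases, rose by 1.44 ± 0.34 (adjusted p = 0.0323), by 0.64 in the first number series and 1.86 in the second, and lost its call without vehicle C3, tamoxifen C32 or tamoxifen C33. Prtn3, a serine protease of neutrophil granules, rose by 1.65 ± 0.31 (adjusted p = 0.0109), but its exons overlap Plppr3 and their reads cannot be told apart without a stated strand setting. With E2 the Prtn3 value was 4.74 and with E4 3.81. Of the 13 tested neutrophil markers (median -0.19, 8 below 0) Prtn3 was the only member that rose, 0 fell, and Ly6g and Mpo stayed below the filter. Mb, which encodes myoglobin, and Gm49540 overlap each other. They rose by 1.30 ± 0.28 and 1.63 ± 0.35, with adjusted p = 0.0234 and 0.0218, and both lost their calls without vehicle C3, tamoxifen C12 or tamoxifen C33. Mb was the only one of 14 tested skeletal muscle markers that rose, and the mean log2 CPM of that list was 0.98 in C33 and 3.24 in C35 against at most -0.70 in the other 4 tamoxifen libraries. The part of muscle tissue in the Mb result was not tested.

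The largest decrease was that of BC049987, a long noncoding RNA at chr9:44670453-44672238. Vehicle libraries had 2.15 to 5.39 CPM (median 3.15) and tamoxifen libraries 0.290 to 0.918 CPM (median 0.64), without overlap. The log2 fold change was -2.41 ± 0.36 (adjusted p = 0.00263), beside -2.80 with E2 and -2.90 with E4. Prlr, the prolactin receptor, had 2.47 to 5.32 CPM (median 3.30) with vehicle and 0.51 to 1.30 CPM (median 0.78) with tamoxifen. It fell by 2.09 on the log2 scale (SE 0.37, adjusted p = 0.0071), and its exons overlap Gm21973. With E2 its value was -1.04 (adjusted p = 0.102) and with E4 -1.08 (adjusted p = 0.0316), and neither differed from tamoxifen by test (adjusted p = 0.0877 and 0.364). Magel2, an imprinted gene of the MAGE family, had 0.634 to 1.81 CPM with vehicle and 0.179 to 0.401 CPM with tamoxifen (log2 fold change -2.04 ± 0.33, adjusted p = 0.00448). Its value with E2 was -0.83, which did not pass (adjusted p = 0.155), and with E4 -2.01. Tested directly, tamoxifen lay below E2 by 1.21 (adjusted p = 0.0319).

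Cyp2f2, a cytochrome P450 best known from airway secretory cells, had 7.11 to 13.2 CPM (median 11.1) with vehicle and 1.96 to 4.10 CPM (median 2.77) with tamoxifen. The groups did not overlap, and the log2 fold change was -1.85 ± 0.29 (adjusted p = 0.00377). Its exons overlap the antisense gene Gm15883. E2 lowered Cyp2f2 further (-3.42), and tamoxifen lay above E2 by 1.57 (adjusted p = 0.00247). The noncoding RNA Gm47818 fell by 1.67 (SE 0.29, adjusted p = 0.00657) without overlap between groups. Outside the rule for naming genes, Sucnr1, the receptor for succinate, is given because it was among the 17 and its values were seen first. It had 2.31 to 4.78 CPM with vehicle and 1.32 to 2.04 CPM with tamoxifen (log2 fold change -1.14 ± 0.18, adjusted p = 0.00279). Its value was 0.25 with E2 and -0.58 with E4 (adjusted p = 0.0207). The difference of tamoxifen from E4 did not pass (adjusted p = 0.265).

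**Figure D3:**
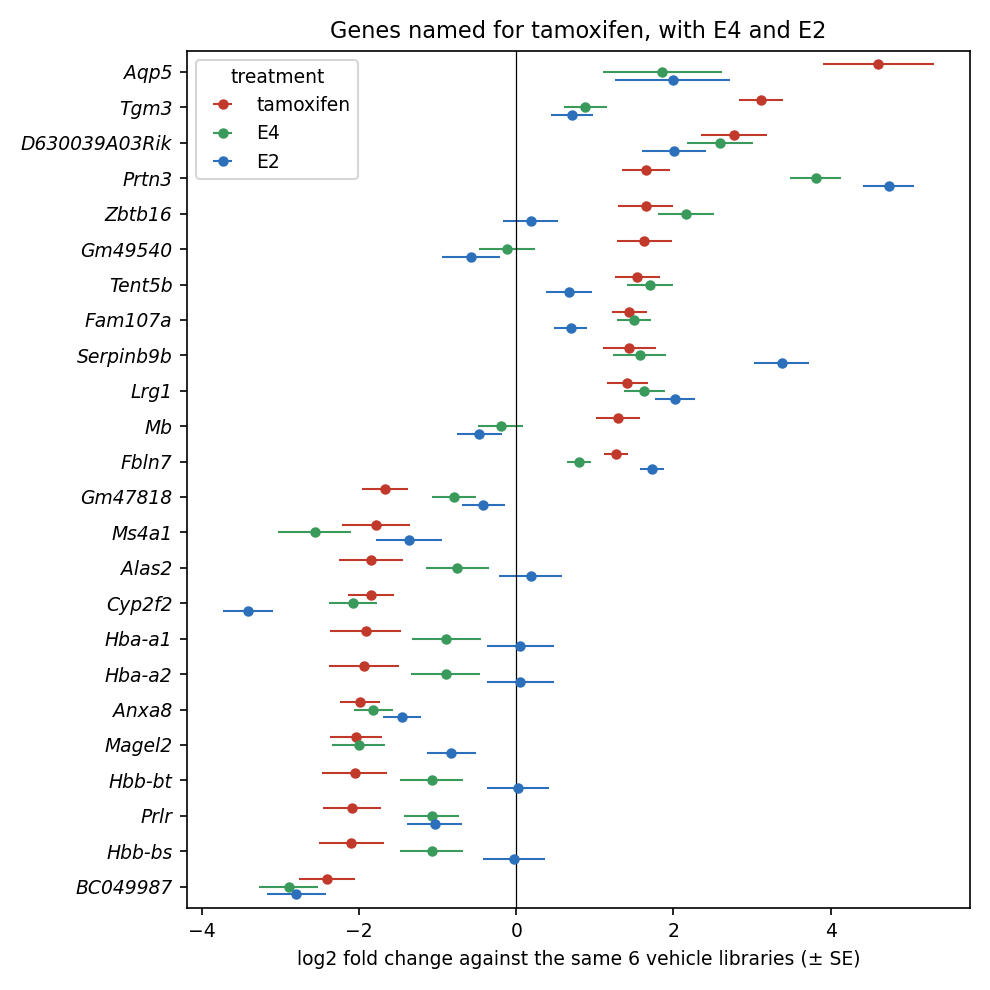
Log2 fold change ± SE against the same 6 vehicle libraries for the 12 highest and 12 lowest named genes with tamoxifen (red), E4 (green) and E2 (blue), 6 libraries per treatment. Tamoxifen stands apart at Tgm3 (3.12 against 0.88 and 0.71), whereas the globin genes are near 0 with E2 and between -0.89 and -1.08 with E4.

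Red cell transcripts made up 5 of the 12 lowest values shown. All 8 tested erythroid markers had negative log2 fold changes (median -1.92), and 6 fell, among them the globin genes Hbb-bs, Hbb-bt, Hba-a1 and Hba-a2 and the heme synthesis enzyme gene Alas2. Hbb-bs had 1870 to 13300 CPM (median 4640) with vehicle and 858 to 2270 CPM (median 1070) with tamoxifen. The groups overlapped, and the log2 fold change was -2.10 ± 0.41 (adjusted p = 0.013). The summed level of the 8 genes was 3390 to 28200 CPM in vehicle and 1900 to 5030 CPM in tamoxifen libraries, and vehicle C3 was the highest. Without vehicle C3, none of the 6 stayed called (Hbb-bs adjusted p = 0.0511, Alas2 adjusted p = 0.0997). The globin copies are near-identical and their counts are uncertain individually. Direct tests against E2 gave lower values with tamoxifen for Hbb-bs (-2.07, adjusted p = 0.00257) and Alas2 (-2.04, adjusted p = 0.00347), the latter with exons that overlap Apex2. In whole arteries, fewer cells of a type and less RNA per cell cannot be told apart.

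Of 15 tested B cell markers, 2 fell: Ms4a1, encoding CD20, and Cd79b, a part of the B cell receptor. The log2 fold changes of all 15 were negative (median -1.29), and the median was -0.8 with E2 and -1.82 with E4. Ms4a1 had 0.638 to 5.62 CPM (median 2.44) with vehicle and 0.341 to 1.23 CPM (median 0.814) with tamoxifen, with overlap (log2 fold change -1.79 ± 0.43, adjusted p = 0.0343). Cd79b had -1.51 ± 0.40 (adjusted p = 0.0487). Both calls were lost in 8 of the 12 fits that left out 1 library, such as that without vehicle C3 (adjusted p = 0.12 and 0.151). T cell markers had negative values in 16 of 16 genes (median -0.54), but 0 of them passed, with 1 at an unadjusted p-value under 0.05. Summed B cell markers were 38.1 to 116 CPM with vehicle and 28.9 to 53.4 CPM with tamoxifen. With E4 the log2 fold change against vehicle was -2.57 for Ms4a1 (adjusted p = 0.000962) and -1.98 for Cd79b (adjusted p = 0.0029). With E2 the values were -1.37 (adjusted p = 0.0691) and -0.87 (adjusted p = 0.266). Tamoxifen differed from neither E2 nor E4 by test for these 2 genes.

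With the mean level of the erythroid markers as a covariate, 5 genes were called, and with that of the B cell markers 5 were called. They were the same 5, Tgm3, Fbln7, Myocd, Lctl and Anxa8. Some genes outside the blood lists lost their call with a fold change of similar size. Under the erythroid and the B cell covariate, the log2 fold change was 4.25 and 3.98 for Aqp5 (adjusted p = 0.339 and 0.138), beside 4.61 without a covariate. It was 1.13 and 1.20 for Stc1 (adjusted p = 0.522 and 0.141), beside 1.26. For Prlr it was -1.83 and -1.80 (adjusted p = 0.526 and 0.2), beside -2.09, and for Zbtb16 2.01 under both (adjusted p = 0.339 and 0.0635), beside 1.65. Other genes past the adjusted threshold had smaller fold changes under the erythroid covariate. Examples are Gsta3 (-0.49, beside -0.81 without a covariate), Inhbb (-0.52 beside -0.79), Foxo1 (0.35 beside 0.55) and Col15a1 (0.32 beside 0.52). With the sympathetic neuron markers as a covariate 109 genes were called. The erythroid mean was 4.73 to 7.35 in vehicle and 4.08 to 5.05 in tamoxifen libraries, and the B cell mean 0.04 to 2.38 and -0.32 to 0.84. Both covariates thus differ with treatment, so their parts in these fits cannot be told apart. The part of blood cells in the other calls was not tested.

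**Figure D4:**
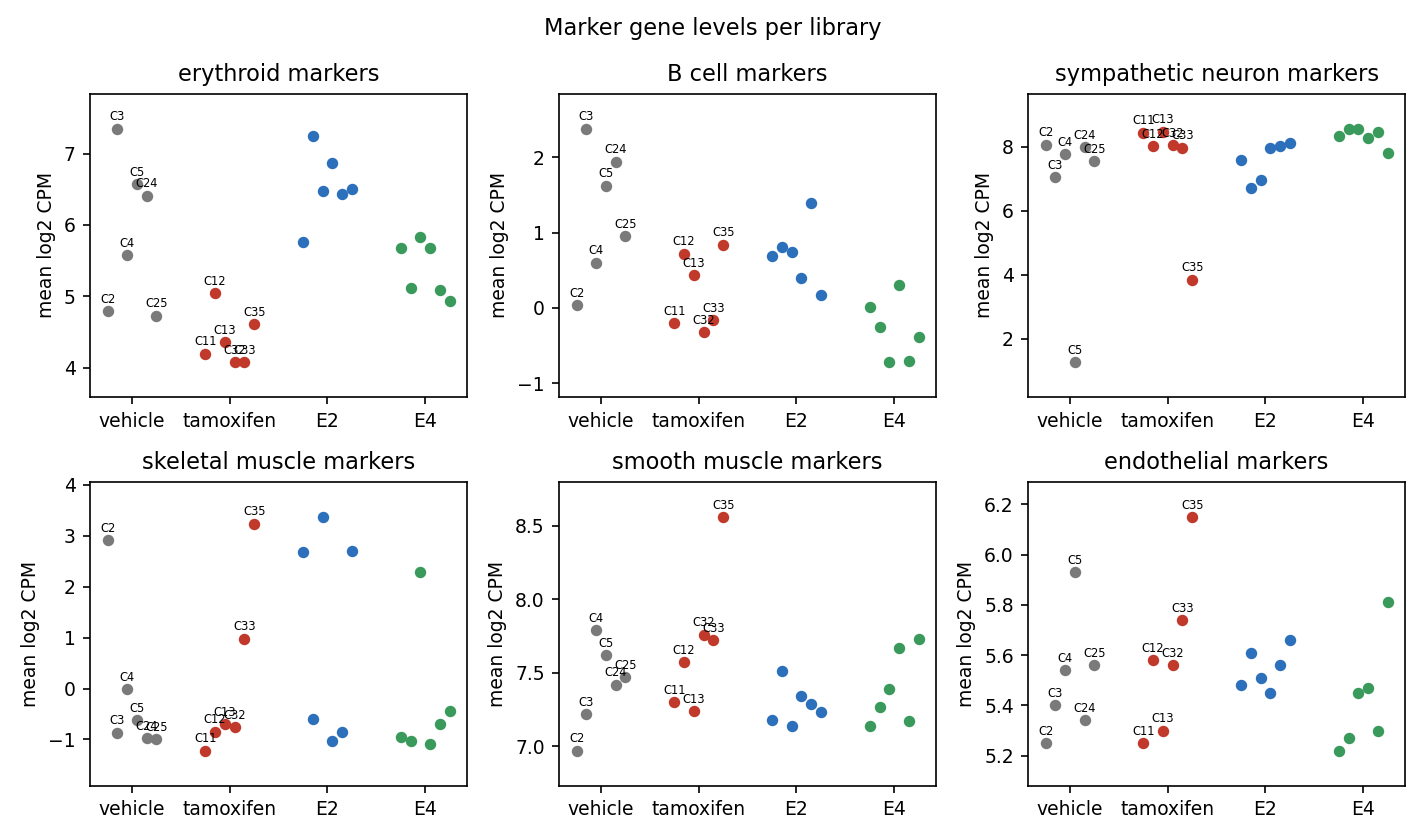
Mean log2 CPM of 6 marker lists in each of the 24 libraries, with vehicle and tamoxifen libraries named. Erythroid markers lie at 4.73 to 7.35 in vehicle and 4.08 to 5.05 in tamoxifen libraries, and vehicle C5 and tamoxifen C35 stand apart for sympathetic neurons at 1.27 and 3.85.

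Esr1 itself fell. It had 34.3 to 62.8 CPM (median 43.6) with vehicle and 26.3 to 37.1 CPM (median 31.7) with tamoxifen. The groups overlapped, and the log2 fold change was -0.55 ± 0.13 (adjusted p = 0.0286), beside -0.37 with E2 and -0.86 with E4. Its adjusted p was over the threshold in 5 of the 12 fits that left out 1 library (0.0605 to 0.0666). Esr2, encoding ERβ, had 0 to 6 counts per vehicle library and 0 to 7 per tamoxifen library and stayed below the filter, so no change was detectable at this depth. Gper1, a membrane estrogen receptor, had a log2 fold change of 0.18 ± 0.37 (adjusted p = 0.816). Of the 16 tested receptors and coregulators, 3 rose and 1 fell, and the median was 0.18. The coactivator acetyltransferase genes Crebbp and Ep300 rose by 0.30 ± 0.06 (adjusted p = 0.0215) and 0.34 ± 0.08 (adjusted p = 0.0259). Pelp1, a scaffold of ERα signaling, rose by 0.38 ± 0.10 (adjusted p = 0.047). Without vehicle C3 all 3 increases were lost (adjusted p = 0.0626, 0.082 and 0.137), and they were lost in 2, 4 and 8 of the 12 fits that left out 1 library.

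Of 52 tested genes known to respond to estrogens, 3 rose and 1 fell (median 0.12). Stc1, a secreted glycoprotein hormone, had 3.04 to 6.73 CPM (median 5.49) with vehicle and 9.28 to 16.5 CPM (median 12.4) with tamoxifen. The groups did not overlap, and the log2 fold change was 1.26 ± 0.22 (adjusted p = 0.00657). E2 raised Stc1 by 3.88 and E4 by 2.13, and tamoxifen lay below E2 by 2.62 (adjusted p = 9.3e-08) while the difference from E4 did not pass (-0.87, adjusted p = 0.0878). The exons of Stc1 overlap Gm41192. Pgr, the progesterone receptor gene, had 2.90 to 5.19 CPM with vehicle and 4.66 to 9.88 CPM with tamoxifen. It rose by 0.72 ± 0.17 (adjusted p = 0.0327), beside 1.12 with E2 and 0.29 with E4, and was over the threshold in 5 of the 12 fits that left out 1 library. Greb1, an ERα cofactor gene, had 0.22 to 1.98 CPM with vehicle and 0.951 to 2.48 CPM with tamoxifen (log2 fold change 0.27 ± 0.30, adjusted p = 0.641). With E2 its value was 2.41 and with E4 1.15, and tamoxifen differed from E2 by -2.15 (adjusted p = 5.28e-05). Aqp5, described above, is the other member that rose. Ptges, a prostaglandin E synthase gene, fell by 0.46 (SE 0.11, adjusted p = 0.0385) without overlap between groups, and lost this in 8 of those fits.

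In the vessel wall, Myocd rose. It encodes myocardin, the coactivator of serum response factor that drives contractile genes of smooth muscle. Vehicle libraries had 8.20 to 18.1 CPM (median 13.5) and tamoxifen libraries 19.9 to 50.7 CPM (median 29.4), without overlap. The log2 fold change was 1.19 ± 0.21 (adjusted p = 0.00818), with 0.87 in the first number series and 1.44 in the second. Tamoxifen exceeded E2 by 0.93 (adjusted p = 0.00918), whose value was 0.26, and the value with E4 was 0.87. Without tamoxifen C35 the adjusted p was 0.0131 but the fold change was no longer over 1. Of 18 tested SMC markers, Myocd was the only one that rose, 0 fell, and the median was 0.32. Acta2 (0.44, adjusted p = 0.245) and Myh11 (0.62, adjusted p = 0.122) did not pass. Summed SMC markers were 4670 to 8940 CPM with vehicle and 5660 to 14900 CPM with tamoxifen, and C35 was the highest.

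Both chains of type I collagen rose without passing the fold-change threshold. Col1a1 had 285 to 583 CPM (median 431) with vehicle and 605 to 913 CPM (median 731) with tamoxifen. The groups did not overlap, and the log2 fold change was 0.75 ± 0.16 (adjusted p = 0.0232). Its partner chain Col1a2 rose by 0.61 ± 0.15 (adjusted p = 0.0401) and Col15a1, a basement membrane collagen gene, by 0.52 ± 0.13 (adjusted p = 0.043). E2 and E4 gave -0.30 and -0.58 for Col1a1. Tamoxifen exceeded E2 by 1.05 (adjusted p = 0.00025) and E4 by 1.33 (adjusted p = 0.000184) for this gene, and for Col1a2 by 0.85 (adjusted p = 0.0013) and 1.15 (adjusted p = 0.000481). Without vehicle C3, the increases over vehicle of Col1a1 (adjusted p = 0.0662), Col1a2 (adjusted p = 0.12) and Col15a1 (adjusted p = 0.126) were lost. Of the 12 fits that left out 1 library, Col1a1 lost its increase in 1, Col1a2 in 9 and Col15a1 in 10. Col3a1, the chain of type III collagen, did not pass (0.29 ± 0.16, adjusted p = 0.31). Of 40 tested matrix genes 3 rose, 0 fell and the median was 0.22. Adventitial fibroblast markers had a median of -0.11 and 0 of 16 passed. Of them 4 had an unadjusted p-value under 0.05, beside 5256 of all 25033 tested genes.

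Among 26 ligands and antagonists of the BMP and TGF-β family, 3 rose and 1 fell (median 0.14). Bmp8a, a BMP ligand, had 0 to 0.153 CPM with vehicle and 0.0787 to 0.553 CPM with tamoxifen, and its log2 fold change of 2.36 ± 0.51 (adjusted p = 0.0219) rests on few counts. It was 1.39 in the first and 3.24 in the second number series, and the call was lost without tamoxifen C33 (adjusted p = 0.056). With only the tamoxifen and vehicle libraries in the fit, Bmp8a stayed below the filter and was not tested. E2 raised it by 5.54, and tamoxifen minus E2 was -3.19 (adjusted p = 8.1e-06). Tgfb2, encoding TGF-β2, rose by 0.67 ± 0.16 (adjusted p = 0.0351). Inhbb, which encodes an activin and inhibin subunit, fell by 0.79 (SE 0.18, adjusted p = 0.0273). Without vehicle C3 both were over the threshold (adjusted p = 0.111 and 0.0696), as in 5 and 6 of the 12 fits that left out 1 library.

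Of 21 endothelial markers 1 rose, 0 fell and the median was 0.08. The one was Vwf, encoding von Willebrand factor, which carries clotting factor in plasma and binds platelets. It had 68.9 to 113 CPM (median 79.8) with vehicle and 124 to 245 CPM (median 152) with tamoxifen, without overlap (log2 fold change 0.97 ± 0.18, adjusted p = 0.011). Its value was 0.61 in the first number series and 1.39 in the second. The adjusted p was 0.0759 with only the 2 groups in the fit, 0.626 with the erythroid covariate and 0.2 with the B cell covariate, with log2 fold changes of 0.97, 0.96 and 0.92. E2 gave 1.22 and E4 1.27, and Nos3, the endothelial nitric oxide synthase gene, had -0.23 ± 0.15 (adjusted p = 0.405). Of 36 angiogenesis genes, Stc1 and Thbs1 rose and Apln fell (median 0.09). Thbs1, an inhibitor of angiogenesis, rose by 0.66 ± 0.17 (adjusted p = 0.0464) and lost this in 9 of the 12 fits that left out 1 library. Apln, the apelin ligand of endothelial tip cells, fell by 0.83 (SE 0.19, adjusted p = 0.0286) without overlap, beside -1.22 with E2 and -1.24 with E4, and lost this in 4 of those fits.

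Of 26 glucocorticoid-responsive genes 4 rose and 0 fell, and the median was 0.39. Zbtb16, a transcriptional repressor induced by glucocorticoids in many tissues, had 10.7 to 21.4 CPM (median 14.3) with vehicle and 19.2 to 80.2 CPM (median 47.9) with tamoxifen. The groups overlapped, and the log2 fold change was 1.65 ± 0.35 (adjusted p = 0.0218). Fkbp5, a chaperone that restrains the glucocorticoid receptor, had 12.8 to 27.9 CPM with vehicle and 29.1 to 53.6 CPM with tamoxifen, without overlap (0.87 ± 0.19, adjusted p = 0.0234). Klf9, a Krüppel-like transcription factor, rose by 0.65 ± 0.14 (adjusted p = 0.0219) and Foxo1, a forkhead factor, by 0.55 ± 0.14 (adjusted p = 0.0403). Without vehicle C3 all 4 increases were lost, with adjusted p = 0.0655 for Zbtb16, 0.0738 for Fkbp5, 0.0619 for Klf9 and 0.12 for Foxo1. Of the 12 fits that left out 1 library, Foxo1 lost its increase in 8, Fkbp5 in 3, Klf9 in 2 and Zbtb16 in 1. The list's median was 0.03 with E2 and 0.42 with E4. Tamoxifen lay above E2 for Zbtb16 (1.48, adjusted p = 0.0121) and Klf9 (0.57, adjusted p = 0.0145). With E4 the Zbtb16 value was 2.16, and the difference of tamoxifen from E4 did not pass (adjusted p = 0.711). Per1 (0.62, adjusted p = 0.108), also a clock gene, and Tsc22d3 (0.51, adjusted p = 0.114) did not pass. Of 19 clock genes 0 passed, and 4 had an unadjusted p-value under 0.05, beside 5256 of all 25033 tested genes.

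Metabolic genes showed single changes. Insig1, which holds the sterol sensor in the endoplasmic reticulum, had 205 to 348 CPM (median 262) with vehicle and 149 to 191 CPM (median 171) with tamoxifen. It fell by 0.61 (SE 0.11, adjusted p = 0.00789) without overlap, beside -0.69 with E2 and -0.88 with E4. With only the 2 groups in the fit its value was -0.61 (adjusted p = 0.0809), with the erythroid covariate -0.45 (adjusted p = 0.799) and with the B cell covariate -0.54 (adjusted p = 0.209). It was the only one of 24 cholesterol genes past the threshold (median 0.10), and the value was 0.14 ± 0.27 for Hmgcs1, a synthesis enzyme gene (adjusted p = 0.799). Of 27 tested drug metabolism genes, 1 fell: Gsta3, a glutathione transferase gene (-0.81 ± 0.20, adjusted p = 0.0374), which lost this in 6 of the 12 fits that left out 1 library. Cyp3a11 and Cyp1a2 stayed below the filter. Lep, the adipocyte hormone gene, had 18.3 to 38 CPM (median 26.5) with vehicle and 4.68 to 18.5 CPM (median 8.68) with tamoxifen, and the ranges just touched. The log2 fold change was -1.49 ± 0.27 (adjusted p = 0.0081), and tamoxifen lay below E2 by 2.02 (adjusted p = 3.42e-05). With E4 the Lep value was -1.33 (adjusted p = 0.00199), and tamoxifen did not differ from E4 by test (-0.15, adjusted p = 0.879). Of 15 white adipocyte markers Lep was the only one that fell, and their summed level was 5250 to 11700 CPM with vehicle and 5250 to 7880 CPM with tamoxifen.

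In the remaining lists few or no members passed by edgeR's test. None was past the adjusted threshold among 28 interferon-stimulated genes (median 0.21), 34 cell cycle genes (0.03), 25 immediate early genes (0.06), 32 genes of fatty acid metabolism (-0.08), 35 genes of nitric oxide and vascular tone (0.18), 32 chemokines and adhesion molecules (-0.18) and 18 macrophage markers (-0.12). At an unadjusted p-value under 0.05 these lists held 6, 2, 5, 7, 7, 5 and 4 genes in that order, beside 5256 of all 25033 tested genes. None of these shares lay far above that of all tested genes. None was past it either among 18 sympathetic neuron markers (0.50), 16 markers of Schwann and satellite glia (0.50), 10 platelet markers (-0.22), 10 brown adipocyte markers (-0.49), 8 lymphatic endothelial markers (-0.07) and 7 thyroid markers (0.04), which held 0, 6, 1, 6, 2 and 2 genes at an unadjusted p-value under 0.05. Among 10 mast cell markers (median -0.21, 6 below 0), Kit alone rose, by 0.51 ± 0.13 (adjusted p = 0.0364). Among epithelial markers (median 0.11) Amy1, which overlaps Rnpc3, fell by 0.43 (SE 0.11, adjusted p = 0.038). Kit and Amy1 each lost this in 7 of the 12 fits that left out 1 library.

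Tested directly over all genes, tamoxifen differed from E2 in 413 of 25033 genes (1.65%), 65 higher (0.26%) and 348 lower (1.39%) with tamoxifen. It differed from E4 in 49 (0.196%), 19 higher (0.0759%) and 30 lower (0.12%). The number for E2 was 88 with the erythroid covariate, and 465 and 94 in the first and second number series, and that for E4 was 1 and 17 in these series. Without the fold-change threshold these were 1612 (6.44%) and 85 (0.34%). The tamoxifen libraries are shared by these tests and by the test against vehicle. Of genes named above, Tgm3, Col1a1, Mb, Gm49540 and Prtn3 passed both the adjusted p and the fold-change threshold in the tests against E2 and against E4. Mb lay above E2 by 1.76 (adjusted p = 0.000397) and E4 by 1.5 (adjusted p = 0.0126), and Prtn3 below E2 by 3.08 and E4 by 2.16 (adjusted p = 2.9e-07 and 0.000384). Where the difference from E4 did not pass, as for Aqp5, the test does not show that both act alike.

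**Figure D5:**
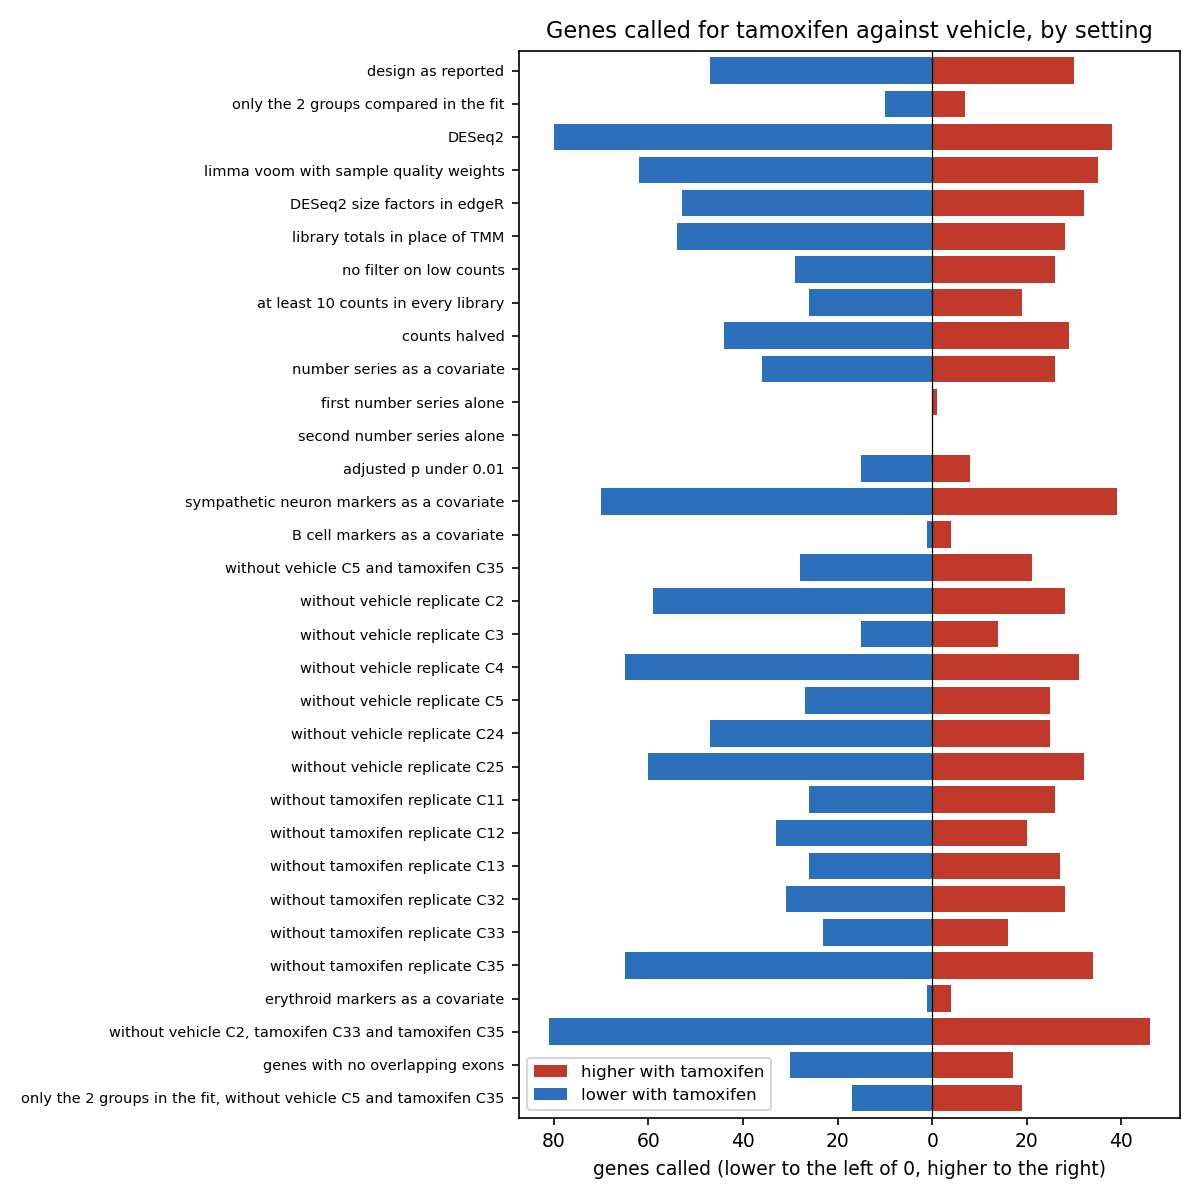
Number of genes called for tamoxifen against vehicle in the design as reported (30 higher to the right of 0, 47 lower to the left) and under each alternative with a fold-change threshold. The numbers run from 0 in the second number series alone to 127 without vehicle C2, tamoxifen C33 and tamoxifen C35.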

How the data were processed

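RNA was sequenced from carotid arteries after poly(A) selection (TruSeq Stranded mRNA, paired reads, NovaSeq). Values as deposited by the authors are estimated counts for each gene, without normalization and with a table for each library, and the submitters' processing notes name bcl2fastq 2.17, Trim Galore, Bowtie2, featureCounts and the builds mm10 and GRCm38. The strand and read pair settings are not given in the sources used here. GENCODE M21 holds 55240 of the 55421 genes listed and gave symbols, coordinates and exon overlaps. Between 8.87% and 9.8% of values per library were not whole, and 92.2% of these lay in genes whose exons overlap another gene. Odd numbers were rarer than even ones among low whole values (ratio 0.794 in the median library), so a fragment may have counted as more than 1 read. The value column of vehicle C2, unlike the others, carries R2 in its header, and 87 genes were called without that library. Values were rounded to whole numbers.

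Counts were tested with edgeR 4.0.16 (quasi-likelihood test, TMM, default filter on low counts, Benjamini-Hochberg adjustment) in R 4.3.3, with all 24 libraries in 1 fit, no covariate and the study's thresholds. SEs follow from F and the fold change. The procedure was tested on simulated data. Tables and figures were made in Python 3.11.15. Each library carries a number of its own, taken here as a mouse; the labels say no more, and p-values measure the spread between these libraries. Totals were 42967985 to 57686035 counts with tamoxifen and 38462554 to 64221401 with vehicle, and the detection floor of 3 counts covers counting error only, since the reads carry no molecular identifiers.

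The comparison and the 33 gene lists were chosen with earlier results of these data known, so counts over lists are descriptions, read against the share of all tested genes. Named genes were the 12 highest and 12 lowest log2 fold changes among called genes with a mean of at least 1 CPM in the higher group, always Esr1, Esr2, Gper1, Pgr, Greb1 and Stc1, every called member of a list, and up to 4 further members of each list by lowest p. Members given beyond these, such as Acta2, serve to describe a list. Ahsp was not matched, and a few genes the rule takes are not reported here. Promoter windows came from RefSeq (GRCm38.p6), and 49 of the 77 called genes matched. Alternatives covered the libraries in the fit, the test (DESeq2 1.42.0, limma 3.58.1), scaling, filter, thresholds, number series, marker covariates and left-out libraries.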

Additional observations from a re-analysis of the deposited data

Results flagged for a closer look

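In each group of 6 libraries, the highest and lowest values of the marker lists and named genes were checked for a gap to the next library larger than Dixon's 95% critical value of 0.625 of the range. Of 134 groups checked, 11 had such a library, where chance gives about 1 in 20 groups (6.7 here). Vehicle C5 had low markers of sympathetic neurons (mean log2 CPM 1.27, others 7.06 to 8.07) and low cholesterol genes (4.80, others 5.73 to 6.18), and high macrophage markers (5.63, others 4.88 to 5.06). Tamoxifen C35 had low markers of sympathetic neurons (3.85, others 7.97 to 8.47), low cholesterol genes (4.88, others 5.91 to 6.20), low estrogen receptor and coregulator genes (5.02, others 5.32 to 5.45), low lymphatic endothelial markers (3.04, others 3.42 to 3.59) and a high Fbln7 level (50.2 CPM, others 29.7 to 34.6). Vehicle C2 had high skeletal muscle markers (2.92, others -1.0 to -0.01). Vehicle C3 had a high Alas2 level (211 CPM, others 27.4 to 93.6). Tamoxifen C13 had low immediate early genes (4.65, others 5.02 to 5.24).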

How the results depend on the processing

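For tamoxifen against vehicle, where 77 genes were called, other settings gave 17 (only the 2 groups in the fit), 118 (DESeq2), 45 (at least 10 counts in every library), 1 and 0 (first and second number series alone), 553 (no fold-change threshold), 23 (adjusted p under 0.01), 5 (B cell covariate) and 49 (without vehicle C5 and tamoxifen C35). Alternatives chosen after seeing the data gave 5 (erythroid covariate), 127 (without vehicle C2, tamoxifen C33 and tamoxifen C35), 47 (genes with no overlapping exons, fewer genes tested) and 36 (2 groups in the fit, without vehicle C5 and tamoxifen C35). Leaving out 1 library gave 29 (without vehicle C3) to 99 (without tamoxifen C35). For tamoxifen against E2, where 413 were called, the counts were 257 (at least 10 counts), 94 (second series), 1612 (no fold-change threshold), 264 (adjusted p under 0.01) and 88 (erythroid covariate), and 314 to 501 with 1 library left out. For tamoxifen against E4, where 49 were called, they were 78 (DESeq2), 83 (limma voom with sample quality weights), 29 (at least 10 counts), 1 and 17 (first and second series) and 85 (no fold-change threshold), and 43 to 55 with 1 library left out. Fits with fewer libraries gave both lower and higher numbers, and the cause of these differences was not tested.

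Of 1704 fold changes of 54 named genes under the alternatives, 1201 kept their direction and side of the threshold, 494 kept the direction but lost the threshold and 9 changed sign. With the erythroid covariate, which is the mean of these genes themselves, Hba-a2 had 0.12, Hba-a1 0.13 and Alas2 0.07. Gper1, at 0.18 as reported and 0.55 in the first series, had -0.03 (limma voom), -0.35 (second series), -0.07 (neuron covariate), -0.16 (B cell covariate) and -0.25 (erythroid covariate), and Greb1 had -0.34 (second series). At these depths, genes such as Esr2 and Bmp8a with few counts per library allow no firm statement. No paired analysis was possible because the groups share no replicate numbers.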

Other observations

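The called genes given here fall outside the naming rule and were chosen after their values were seen. Lctl, a klotho family gene whose exons overlap Zwilch, had 13.2 to 37.1 CPM (median 22.3) with vehicle and 36.8 to 73.3 CPM (median 46.1) with tamoxifen, a log2 fold change of 1.11 ± 0.22 (adjusted p = 0.0123). With E4 its value was -0.16, and tamoxifen exceeded E4 by 1.28 (adjusted p = 0.00332). Hif3a, a hypoxia-inducible factor gene, rose by 1.12 ± 0.27 (adjusted p = 0.0337), and exceeded E2 by 1.39 (adjusted p = 0.0022), whose value was -0.27. With E4 the Hif3a value was 0.99 (adjusted p = 0.0125), and tamoxifen did not differ from E4 by test (0.13, adjusted p = 0.895). Trib3, a stress-responsive pseudokinase gene, rose by 1.04 ± 0.22 (adjusted p = 0.0187), beside 1.21 with E2 and 1.33 with E4. Of the 12 fits that left out 1 library, Lctl kept its call in 10, Hif3a in 6 and Trib3 in 7.

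Mas1, a receptor for angiotensin 1-7, had 0.394 to 1.66 CPM with vehicle and 0.258 to 0.553 CPM with tamoxifen (log2 fold change -1.30 ± 0.31, adjusted p = 0.0351). Uts2, encoding the vasoconstrictor urotensin II, had 0.185 to 0.792 CPM with vehicle and 0.0852 to 0.302 CPM with tamoxifen (-1.24 ± 0.33, adjusted p = 0.0488). The groups overlapped for both, and the calls held in 6 and 4 of the 12 fits that left out 1 library. Prnd, a prion-like gene whose exons overlap Prn, fell by 1.5 (SE 0.22, adjusted p = 0.00263) without overlap, less than with E4, where the value was -3.33 and the difference from tamoxifen 1.83 (adjusted p = 0.000576). Fsd2 fell by 1.30 (SE 0.22, adjusted p = 0.00657), whereas its value with E2 was -0.13 and tamoxifen lay below E2 by 1.17 (adjusted p = 0.0018). Its value with E4 was -0.78 (adjusted p = 0.016), and the difference of tamoxifen from E4 did not pass (adjusted p = 0.485).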
